A study of Mus musculus with 10 samples.

Results

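The motile cilium genes examined here are 43 genes, chosen by what their proteins do: transcription factors, dynein arms and their assembly, the nexin link and ruler, radial spokes and the central pair, tektins and associated proteins, and intraflagellar transport. A gene was followed through the probe that the array's annotation pairs with its symbol, older and newer symbols accepted, and where several probes were paired the one with the highest mean over all 10 arrays was used. Of the 43 genes, 40 had a paired probe among 19096 genes of the array, and Dnaic2, Armc4 and Ccdc40 were not analysed here. The samples came from B6.129 mice at 13 months of age, and RNA from each was hybridized to a 1-colour Agilent whole mouse genome array. The 5 WT samples were lungs of mice with floxed Lkb1 alleles (Lkb1f/f), which are labelled wild type with no Cre named. The 5 SCC samples were whole lung tumours of CCSPiCreLkb1f/f mice, in which Cre is expressed under the promoter of club cell secretory protein in the airway epithelium. Both groups carry the floxed alleles. The question posed by the design was which genes differ between squamous cell carcinoma that arises after loss of Lkb1, a serine/threonine kinase, and the lung. No probe was paired with Lkb1 itself (symbol Stk11), so the deletion was not analysed here.

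Motile cilia are the beating projections of multiciliated cells, which line the conducting airways and move mucus outward. Each is built around a ring of microtubule doublets and a central pair, and it bends when dynein arms, fixed along the doublets, walk on the neighbouring doublet. Radial spokes and the central pair regulate the arms, nexin links turn sliding into bending, tektins lie inside the doublet wall, and intraflagellar transport carries parts to the tip. Foxj1 and factors of the Rfx family switch on these genes when a cell commits to the multiciliated fate.

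All 40 measured genes had a lower mean in SCC than in WT, with a median difference of -1.07 on the log2 scale and a range from -2.63 to -0.15. Over the 15586 genes with a tested probe the median was -0.04, and 52.4% of them had a mean below that of WT. Genes were called changed where limma gave an adjusted p below 0.05 over all tested probes and the difference was at least 2-fold. By that rule 13 of the 40 genes (32.5%) fell, beside 13.4% of all genes, and 0 of 40 rose, beside 11.6%, with 0 higher at an unadjusted p below 0.05 as well. Of the other 27 genes, Rfx2, Dnaic1, Spag6 and Ift172 passed the adjusted p without reaching 2-fold, which made 17 of 40 past that p and lower, beside 28.4% of all genes, and 23 did not pass it. Spag6 passed the filter on dim probes through WT alone, with only 2 SCC arrays well above background, and without it the count was 16 of 39. In bulk samples such as these, fewer ciliated cells and less of these RNAs in each cell cannot be told apart.

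Only 3 of the 40 genes, Tppp3, Tekt2 and Rfx2, had every SCC array below every WT array, beside 22.5% of all genes. The median range of a member over the 5 WT arrays was 1.45 on the log2 scale, against 0.36 for all genes, and over the 5 SCC arrays it was 2.26 against 0.78. Since the study describes its samples as biological replicates without naming each animal in the labels, the p-values measure the spread between these 10 samples.

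**Figure D1:**
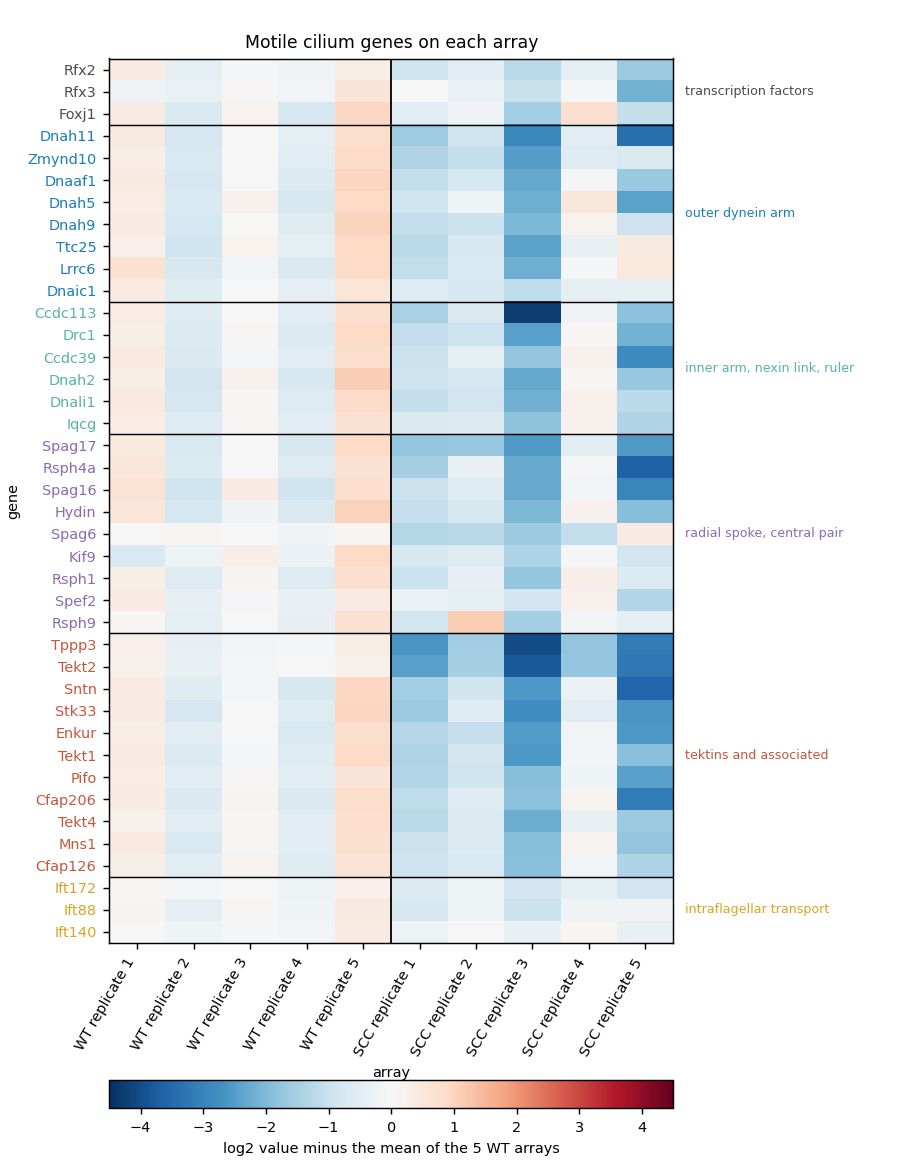
Each cell is the log2 value of 1 gene on 1 array minus that gene's mean over the 5 WT arrays, with genes grouped by role and coloured accordingly. WT replicate 5 is the highest WT array for 39 of 40 genes, and SCC replicates 3 and 5 hold the deepest blue, while SCC replicate 4 lies near the WT mean.

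Values of the 40 genes varied together from array to array inside each group. Taking each gene relative to its WT mean, the median over the 40 genes was 0.35, -0.60, 0.02, -0.53 and 0.77 on WT replicates 1 to 5. WT replicate 5 was the highest WT array for 39 of 40 genes (97.5%), against 22.6% of all genes. On SCC replicates 1 to 5 the same median was -1.08, -0.67, -2.09, -0.11 and -1.68. SCC replicate 4 was the highest SCC array for 30 genes and SCC replicate 3 the lowest for 28, against 18.0% and 19.2% of all genes. SCC replicate 3 was below every WT array for all 40 genes, whereas SCC replicate 4 lay within the WT range or above it for 35, replicate 2 for 19, replicate 5 for 6 and replicate 1 for 3. The SD of these medians was 0.58 in WT and 0.79 in SCC (n = 5 each), and the array medians of the groups overlapped through SCC replicate 4.

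**Figure D2:**
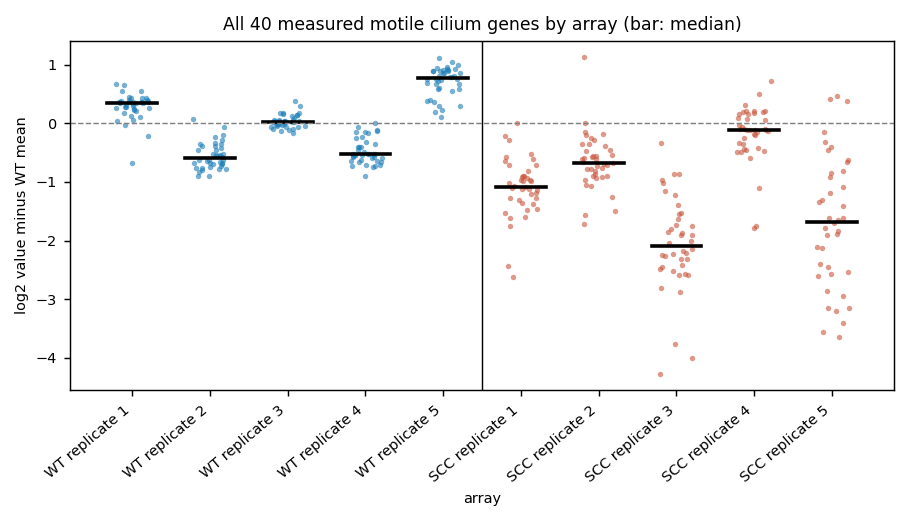
Each point is 1 of the 40 measured genes on 1 array, as the log2 value minus the gene's WT mean, and the bar is the median over genes. The WT medians span -0.60 to 0.77, and the SCC medians span -2.09 to -0.11.

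The number of genes called depended on single arrays. Without SCC replicate 4, 26 of the 40 genes (65.0%) were called lower, beside 13.4% of all genes in the same fit, and without SCC replicate 1 there were 7 (17.5%), beside 12.9%. Without SCC replicate 3 or WT replicate 5 only 3 genes (7.5%) were called, beside 12.3% and 12.5% of all genes, and without WT replicate 1 or 3 there were 5 (12.5%), beside 12.6% and 12.4%. Without SCC replicate 2, SCC replicate 5, WT replicate 2 or WT replicate 4 there were 16 of 40, 9 (22.5%), 15 (37.5%) and 12 (30.0%), beside 15.0%, 12.6%, 12.9% and 12.9%. The share called was thus above that of all genes in 6 of the 10 fits, and near or below it in the other 4. In all of these fits the 40 differences kept their sign. The arrays lay on 3 slides, with WT replicates 1 to 4 on the first, WT replicate 5 and SCC replicates 1 to 3 on the second, and SCC replicates 4 and 5 on the third. Within the second slide, the only one that held both groups, the SCC mean was below WT replicate 5 for all 40 genes, all 3 SCC arrays were below it for 39, and the median difference was -2.03. A fit with slide as a fixed block rests on the same comparison and gave the same median, and 5 genes (12.5%) were called lower, beside 6.43% of all genes. Of the 13 genes called without the block, Spag17 and Zmynd10 were among these 5 and the other 11 were lost, and the other 3 were Dnah9, Dnaic1 and Kif9. Slide 2 alone sets 1 WT array, assumed to vary like the SCC arrays, against 3, and limma gave 0 calls among the 40 genes and 0.0% among all genes, with 28 of the 40 (70.0%) and 12.5% of all genes lower at an unadjusted p below 0.05. All of these within-slide values rest on WT replicate 5, the highest WT array for 39 of the 40 genes.

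Foxj1, the forkhead factor that commands motile ciliogenesis, was not among the genes called. It measured 11.94, 10.88, 11.72, 10.82 and 12.50 on WT replicates 1 to 5 and 11.05, 11.42, 10.04, 12.30 and 10.49 on SCC replicates 1 to 5. SCC replicate 4 was above every WT array except replicate 5 and SCC replicates 3 and 5 were below all of them, so the groups overlapped, with a difference of -0.51 ± 0.46 (log2, SE, n = 5 and 5; limma adjusted p = 0.377). Rfx2, a winged-helix factor that acts on ciliary promoters, measured 8.35, 7.60, 7.89, 7.83 and 8.29 in WT and 7.09, 7.52, 6.78, 7.56 and 6.37 in SCC. Every SCC array was below every WT array, by a margin of hundredths between the closest pair, and the difference was -0.93 ± 0.25 (log2, SE, n = 5 and 5; limma adjusted p = 0.012), past the p threshold and just short of 2-fold. Rfx3, its close relative, measured 7.17, 7.09, 7.42, 7.27 and 7.96 in WT and 7.39, 7.10, 6.36, 7.32 and 5.26 in SCC. SCC replicate 5 was far below the rest while SCC replicates 1, 2 and 4 lay among the WT arrays, and the difference was -0.69 ± 0.39 (log2, SE, n = 5 and 5; limma adjusted p = 0.167). None of the 3 factors was called, and 1 of them (33.3%) was lower at an unadjusted p below 0.05, beside 31.8% of all genes.

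Factors of the Rfx family bind paired sites whose common core reads GTTGCC, and stretches of promoter that hold it are shown as examples for Rfx2 and for the 6 genes called lower whose window holds it. They were picked by their calls, and all 40 genes had a lower mean in SCC with or without these letters. RefSeq windows (build GRCm38.p6) were found for 32 of the 40 genes, and none was found for Foxj1, Ttc25, Dnaaf1, Lrrc6, Rsph1, Rsph4a, Tppp3 and Stk33. Each sequence runs 5′ to 3′ on the strand of its gene within the 250 bases before the start, and capitals mark GTTGCC or its reverse complement GGCAAC.
Rfx2 (chr17:56831082-56831161, minus strand): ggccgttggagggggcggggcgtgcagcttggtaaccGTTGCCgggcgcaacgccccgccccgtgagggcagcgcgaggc
Drc1 (chr5:30281345-30281392, plus strand): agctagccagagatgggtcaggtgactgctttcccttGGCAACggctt
Tekt1 (chr11:72361883-72361954, minus strand): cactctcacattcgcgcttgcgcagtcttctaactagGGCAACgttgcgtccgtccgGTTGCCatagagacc
Tekt2 (chr4:126325742-126325821, minus strand): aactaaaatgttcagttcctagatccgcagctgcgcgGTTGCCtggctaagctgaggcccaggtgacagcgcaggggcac
Sntn (chr14:13670773-13670852, plus strand): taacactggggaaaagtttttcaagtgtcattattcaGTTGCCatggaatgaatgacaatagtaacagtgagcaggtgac
Pifo (chr3:106001498-106001546, minus strand): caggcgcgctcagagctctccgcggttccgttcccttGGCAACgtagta
Enkur (chr2:21205366-21205436, minus strand): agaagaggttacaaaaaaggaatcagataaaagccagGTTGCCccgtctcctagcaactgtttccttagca
The first match began 11 bases before the start of Drc1, 12 before Pifo, 34 before Enkur, 35 before Tekt1, 66 before Sntn, 96 before Tekt2 and 116 before Rfx2. Tekt1 held both orientations, separated by a short spacer.

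On either strand, GTTGCC stood in the 250 bases before the start of 15 of 32 members (46.9%), of 30.8% of 52 other motile cilium genes, of 23.5% of 34 ciliary genes that most cells use, and of 11.8% of all 27025 genes in the table. The variant GTTACC stood in 12.5% of members, 17.3% of the other motile cilium genes, 17.6% of the ciliary genes of most cells and 6.89% of all genes. GTTNCC followed after 0 to 3 bases by GGNAAC, which overlaps both spellings, stood in 3.12%, 5.77%, 11.8% and 0.788% of these, so members had the lowest share of the 3 ciliary lists for both. The forkhead spelling TGTTTG, also read on both strands, stood in 21.9%, 15.4%, 5.88% and 18.0%, and TGTTTAC in 3.12%, 5.77%, 0.0% and 3.54%. Members with GTTGCC had a median difference of -1.31 with 6 of 15 called lower, and members without it -1.01 with 5 of 17, beside 13.4% of all genes called lower. Whether these 2 sets of members differ was not tested. These are counts of letters in a fixed window, and binding was not measured.

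The outer dynein arm, which gives the beat its force, had 2 of its 8 measured genes called lower, beside 13.4% of all genes, and a median difference of -1.01. Dnah11, an outer arm heavy chain, measured 10.10, 8.95, 9.70, 9.30 and 10.50 in WT and 8.12, 8.80, 6.83, 9.22 and 6.31 in SCC. SCC replicate 4 alone reached into the WT range, and the gene fell by 1.86 ± 0.57 (log2, SE; limma adjusted p = 0.0218), a 3.62-fold lower level. Zmynd10, needed to assemble dynein arms in the cytoplasm, measured 10.91, 9.91, 10.63, 10.11 and 11.45 in WT and 9.23, 9.53, 8.11, 10.01 and 9.94 in SCC. Only SCC replicates 4 and 5 lay within the WT range, and the difference was -1.24 ± 0.41 (log2, SE, n = 5 and 5; limma adjusted p = 0.0292). Dnah9, the heavy chain whose probe was the brightest of this role group, measured 10.99, 9.85, 10.60, 10.10 and 11.63 in WT and 9.56, 9.66, 8.63, 10.79 and 9.71 in SCC. SCC replicate 4 was among the WT arrays and the other 4 below all of them, but the difference of -0.96 ± 0.43 (log2, SE, n = 5 and 5; limma adjusted p = 0.0872) did not pass. Dnah5, the heavy chain that runs the length of the axoneme, differed by -1.05 (adjusted p = 0.161) and the assembly factor Dnaaf1 by -1.18 (adjusted p = 0.0545). Dnaic1, an intermediate chain, passed the p threshold at -0.68 (adjusted p = 0.0343). For the docking protein Ttc25 and the assembly factor Lrrc6, at -0.85 and -0.72, SCC replicate 5 lay within the WT range while SCC replicate 3 was the lowest array.

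Of the 6 measured genes of the inner arm, nexin link and ruler, 1 (16.7%) was called lower, beside 13.4% of all genes, and the median difference was -1.14. Drc1, a scaffold of the nexin link and the brightest probe of this group, measured 12.61, 11.70, 12.38, 11.73 and 13.24 in WT and 11.22, 11.41, 9.87, 12.40 and 10.20 in SCC. Its fall of 1.31 ± 0.49 (log2, SE) passed narrowly (limma adjusted p = 0.0475), with SCC replicate 4 above 3 of the WT arrays. Ccdc113, a protein of the ciliary base and axoneme, had the lowest single value relative to WT of all members: SCC replicate 3 read 6.61 against 10.36 on the lowest WT array, and the gene differed by -1.68 ± 0.69 (log2, SE, n = 5 and 5; limma adjusted p = 0.0668). Ccdc39, part of the ruler that spaces the arms, was at -1.15, the inner arm light intermediate chain Dnali1 at -1.01, the heavy chain Dnah2 at -1.13 and the nexin link protein Iqcg at -0.84, and none of these passed.

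Radial spoke and central pair genes had 1 of 9 (11.1%) called lower, a share below the 13.4% of all genes, and a median of -0.98. Spag17, a central pair protein, measured 8.71, 7.59, 8.28, 7.56 and 9.17 in WT and 6.51, 6.55, 5.70, 7.77 and 5.72 in SCC. SCC replicate 4 was the single SCC array inside the WT range, and the gene fell by 1.81 ± 0.45 (log2, SE; limma adjusted p = 0.00809), or 3.51-fold. Rsph9, a radial spoke head protein with the brightest probe of the group, measured 12.27, 11.78, 12.14, 11.81 and 12.83 in WT and 11.35, 13.30, 10.62, 12.05 and 11.76 in SCC. SCC replicate 2 was above every WT array for this gene, the only such value among the 40 genes besides Spag6 on SCC replicate 5, and the difference was -0.35 ± 0.44 (log2, SE, n = 5 and 5; limma adjusted p = 0.533). Its spoke head partners Rsph4a and Rsph1 differed by -1.56 and -0.67 (adjusted p = 0.0674 and 0.173). Spag6, another central pair protein, was well above background on all 5 WT arrays but on only 2 SCC arrays. It measured 5.38, 5.47, 5.42, 5.25 and 5.50 in WT and 4.14, 4.15, 3.77, 4.30 and 5.79 in SCC, with SCC replicates 1 to 4 below all WT arrays and replicate 5 above them, and the difference was -0.97 ± 0.33 (log2, SE, n = 5 and 5; limma adjusted p = 0.0313). The remaining central pair genes Spag16, Hydin, Kif9 and Spef2 lay between -1.37 and -0.54, and none passed.

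Tektins and the other structural or associated proteins held most of the calls, with 9 of 11 genes (81.8%) called lower, beside 13.4% of all genes, and a median of -1.36. With slide as a fixed block none of these 9 calls was kept, at limma adjusted p from 0.0551 to 0.173, and 8 of the 9 were at an unadjusted p below 0.05. Without WT replicate 5 or SCC replicate 3, 2 of 11 (18.2%) were called, beside 12.5% and 12.3% of all genes. Without WT replicate 1 or 3 there were 3 (27.3%), beside 12.6% and 12.4%. Without SCC replicate 1 or 5 there were 5 (45.5%), beside 12.9% and 12.6%, and without SCC replicate 4 all 11, beside 13.4%. Tppp3, a microtubule-bundling protein used as a marker of ciliated cells, had the deepest fall of the 40 genes. It measured 14.11, 13.52, 13.77, 13.81 and 14.17 in WT and 11.24, 12.31, 9.86, 12.09 and 10.72 in SCC, and the highest SCC array was more than 1 log2 unit below the lowest WT array. The difference was -2.63 ± 0.42 (log2, SE, n = 5 and 5; limma adjusted p = 0.00076), a 6.19-fold lower level, and the exact two-sided permutation test over the 10 arrays gave p = 0.00794, the smallest that 5 against 5 can give. Tekt2, a filament protein of the doublet wall, measured 12.01, 11.50, 11.79, 11.84 and 12.01 in WT and 9.40, 10.33, 8.06, 10.07 and 8.63 in SCC. The groups were again apart, and the difference was -2.53 ± 0.40 (log2, SE, n = 5 and 5; limma adjusted p = 0.000674), or 5.79-fold. These genes and Spag17 were called in all 10 fits that each left out 1 array, whereas with slide as a fixed block Tppp3 and Tekt2 were at limma adjusted p = 0.055 and 0.064.

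Sntn, which encodes sentan of the ciliary tip, measured 9.99, 9.05, 9.57, 8.91 and 10.55 in WT and 8.08, 8.71, 7.03, 9.36 and 6.05 in SCC. SCC replicate 4 was above 2 of the WT arrays and SCC replicate 5 was the lowest array, and the gene fell by 1.77 ± 0.60 (log2, SE; limma adjusted p = 0.0343). Pifo, a protein of the ciliary base, measured 9.95, 9.07, 9.66, 9.14 and 10.18 in WT and 8.29, 8.70, 7.70, 9.39 and 7.15 in SCC. SCC replicate 4 lay within the WT range and the other SCC arrays below it, and the difference was -1.35 ± 0.41 (log2, SE, n = 5 and 5; limma adjusted p = 0.0206). Tekt4 measured 11.49, 10.76, 11.36, 10.76 and 12.03 in WT and 10.10, 10.67, 9.04, 10.93 and 9.66 in SCC. Again SCC replicate 4 alone lay in the WT range, at a difference of -1.20 ± 0.38 (log2, SE, n = 5 and 5; limma adjusted p = 0.0261). Cfap126, known as Flattop and placed at the ciliary base, measured 13.39, 12.66, 13.27, 12.57 and 13.72 in WT and 12.18, 12.44, 11.25, 13.00 and 11.72 in SCC. Its difference was -1.0 ± 0.34 (log2, SE, n = 5 and 5; limma adjusted p = 0.0342), barely 2-fold. Stk33, a kinase, was at -1.61, Enkur, a calmodulin-binding protein of the doublet, at -1.50 and Tekt1 at -1.36 (adjusted p = 0.0297, 0.0286 and 0.0355), and all were called lower. Cfap206 and Mns1, at -1.31 and -1.02 (adjusted p = 0.0857 and 0.0738), did not pass.

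**Figure D3:**
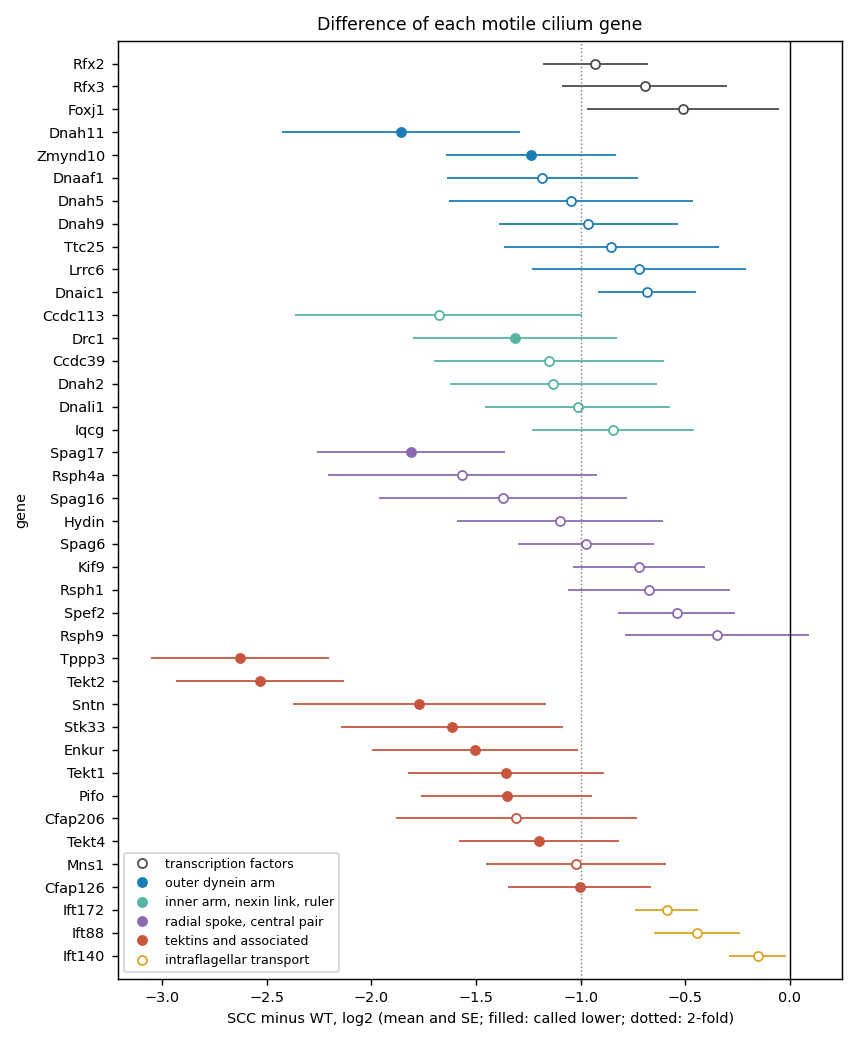
The mean difference SCC minus WT of each gene on the log2 scale with its SE (5 arrays a group), grouped and coloured by role. Filled points passed the call rule, 13 in all, of which 9 belong to the tektins and associated proteins, and every point lies left of 0.

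Intraflagellar transport genes, which every ciliated cell uses, had the smallest median, -0.44, and 0 of 3 were called by limma, with 1 (33.3%) lower at an unadjusted p below 0.05, beside 31.8% of all genes. Ift140, of the complex for return transport, measured 10.48, 10.25, 10.38, 10.32 and 10.81 in WT and 10.23, 10.45, 10.11, 10.53 and 10.13 in SCC. The groups overlapped, and the difference was -0.15 ± 0.13 (log2, SE, n = 5 and 5; limma adjusted p = 0.362). Ift88, of the outward complex, measured 9.85, 9.32, 9.79, 9.57 and 10.12 in WT and 9.02, 9.52, 8.76, 9.55 and 9.57 in SCC. SCC replicates 2, 4 and 5 lay within the WT range, at a difference of -0.44 ± 0.20 (log2, SE, n = 5 and 5; limma adjusted p = 0.0974). Ift172, also of the outward complex, passed the p threshold at -0.59 (adjusted p = 0.00951), well short of 2-fold.

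**Figure D4:**
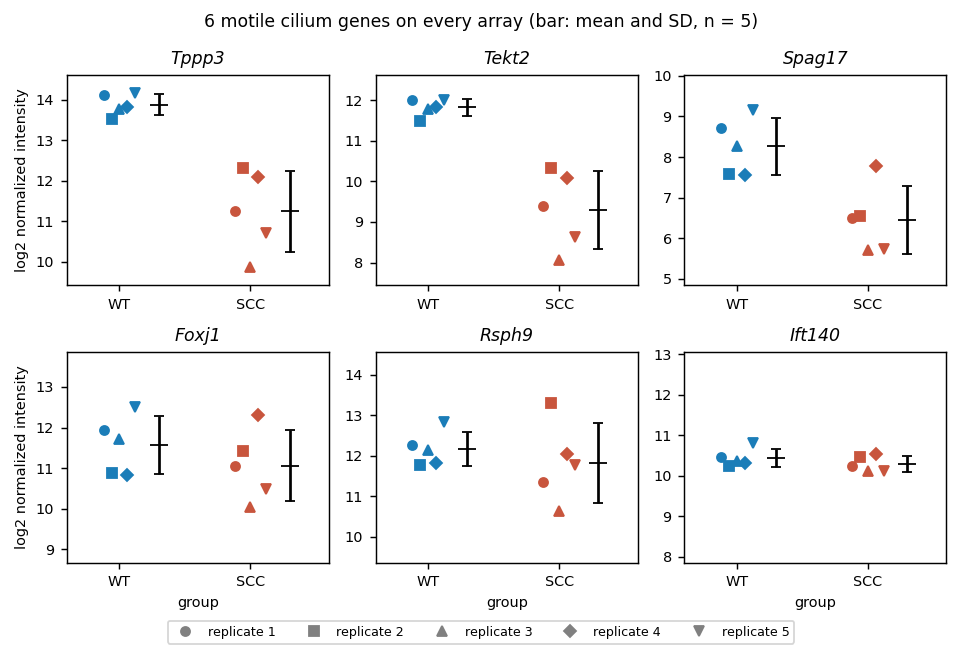
Log2 normalized intensity of 6 genes on every array, with the mean and SD of each group (n = 5) beside the points and each panel spanning the same number of log2 units. For Tppp3 and Tekt2 the groups are apart, for Spag17 only SCC replicate 4 reaches the WT range, and for Foxj1, Rsph9 and Ift140 they overlap.

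Since the 40 genes varied together between arrays, each was also expressed relative to the median of the others on the same array. The offset from that median also holds the brightness of the probe, so only its change between arrays is read. For Tppp3 it was 4.01, 4.20, 3.97, 4.23 and 3.62 in WT and 2.29, 3.03, 2.16, 2.41 and 2.31 in SCC, a difference of -1.56 with no overlap. Tekt2 and Dnah11 were also lower without overlap, at -1.47 and -0.77. For Dnah11 the gap was narrow, with the highest SCC array at -0.57 and the lowest WT array at -0.53. Foxj1 went the other way: its offset was 1.84, 1.56, 1.92, 1.25 and 1.95 in WT and 2.10, 2.14, 2.34, 2.62 and 2.08 in SCC, a difference of 0.55 with every SCC array above every WT array. The other 36 genes overlapped, with Ift140 at 0.91, Ift88 at 0.73 and Rsph9 at 0.72. Among 61 other motile cilium genes set against the same median, 8.2% were lower without overlap and 8.2% higher, beside 3 and 1 of the 40 members. The share of all genes on this relative scale was not computed. A relative shift shows unequal change between probes, not that 1 of them was unchanged.

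Several genes were read by more than 1 probe, and the probes did not always give the same difference. Dnah2 was not called by its brighter probe at -1.13, but its dimmer probe measured 6.75, 7.02, 7.09, 7.04 and 6.87 in WT and 5.17, 5.48, 5.17, 5.23 and 4.07 in SCC and fell by 1.93 with no overlap (limma adjusted p = 0.000157). The dimmer probe was also even across WT arrays, which the brighter one was not. Both Tekt1 probes were called, at -1.36 and -1.35. Dnah5 had probes at -1.05, -1.23 and 0.64, and on the last of them SCC replicate 5 was the highest array, at 7.47. Ift172 likewise had probes at -0.59, -0.73 and 0.19. Dnaaf1 probes gave -1.18 and -0.20. The Rfx3 probes were all between -0.70 and -0.63 and none was called. The tested Spag16 probes gave -1.37 and -0.28 (limma adjusted p = 0.0793 and 0.598), and the tested Ift140 probes -0.15 and -0.07. Of 3 Dnah9 probes and 3 Spag16 probes, 2 and 1 were too dim to be tested, as was the remaining Ift140 probe.

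Genes of the motile axoneme outside the 43 had values much like these. Of 78 such genes, 61 were tested, 22 were called lower (36.1%, beside 13.4% of all genes) and 0 higher, with 37 lower (60.7%, beside 31.8%) and 0 higher at an unadjusted p below 0.05, and the median difference was -1.13. WT replicate 5 was the highest WT array for 56 of them and SCC replicate 4 the highest SCC array for 55. With slide as a fixed block 4 were called (6.56%, near the 6.43% of all genes in that fit), and of the 22 only Dnah8 and Tmem212 were among them. Leaving out SCC replicate 4 raised their count to 37 (60.7%), beside 13.4% of all genes in that fit. Leaving out WT replicate 5, WT replicate 1 or SCC replicate 3 lowered it to 12 (19.7%), 13 (21.3%) and 13 (21.3%), beside 12.5%, 12.6% and 12.3%. Lrriq1, at -2.10 ± 0.62 (log2, SE, n = 5 and 5; limma adjusted p = 0.0188), was tested through its WT arrays, since only 2 SCC arrays were well above background, and its size is read against values near background. Kif6, also called, had 3 such SCC arrays, and without the 3 genes tested through WT alone, 20 of 58 (34.5%) were called. Dnah8, a dynein heavy chain, measured 9.81 to 10.21 in WT and 7.63 to 8.46 in SCC, with no overlap, at -1.96 ± 0.16 (log2, SE, n = 5 and 5; limma adjusted p = 1.77e-05). Dnal1, a dynein light chain, Cfap161 and Meig1, which is needed for the sperm tail, were at -1.93, -1.91 and -1.84 (adjusted p = 0.0153, 0.00474 and 0.0193).

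Ciliary genes that most cells use, those of intraflagellar transport, the BBSome and the transition zone, had a smaller median of -0.69, and 9 of 41 were called lower, beside 13.4% of all genes, and 0 higher. Another 18 passed the adjusted p in the same direction without reaching 2-fold, which made 27 of 41 (65.9%), beside 28.4% of all genes, and 2 passed it in the other, Kif3a at 0.47 and Ift22 at 0.29 (limma adjusted p = 0.0158 and 0.0486), which were also the 2 higher at an unadjusted p below 0.05. In this list 16 of 41 genes had every SCC array below every WT array, against 3 of the 40 members and 22.5% of all genes, and WT replicate 5 was the highest WT array for 23 of 41. Tctn2, of the transition zone, measured 9.78, 9.82, 9.79, 9.86 and 9.96 in WT and 8.40, 8.80, 7.62, 8.39 and 8.55 in SCC, at -1.49 ± 0.19 (log2, SE, n = 5 and 5; limma adjusted p = 0.000195). Cc2d2a of the same zone, the BBSome subunit Bbs2 and the transport proteins Ift43 and Ttc26 were at -1.26, -1.15, -1.13 and -1.13. Of the 9, 4 were also called with slide as a fixed block, Tctn2, Ift43, Kifap3 and Dync2h1. These were all the calls of that fit in this list (9.76%, beside 6.43% of all genes). The main count of 9 fell to 2 (4.88%, beside 12.6% of all genes) without SCC replicate 5. It fell to 5 (12.2%) without SCC replicate 3 or WT replicate 5, beside 12.3% and 12.5%, and rose to 14 (34.1%) without SCC replicate 2, beside 15.0%.

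**Figure D5:**
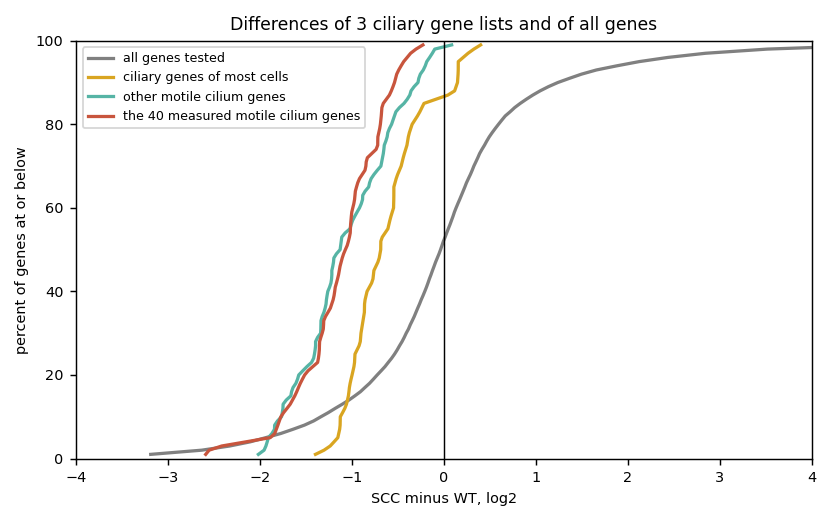
Cumulative share of genes by SCC minus WT on the log2 scale, for the 40 members, 61 other motile cilium genes, 41 ciliary genes of most cells and 15586 genes tested. The median is -1.07 for the members, -1.13 for the other motile cilium genes, -0.69 for ciliary genes of most cells and -0.04 for all genes.

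Of 15 tested genes listed as regulators of multiciliation, 5 had a lower mean in SCC, 3 (20.0%) were called lower and 1 (6.67%) higher, beside 13.4% and 11.6% of all genes, and the median was 0.16. With slide as a fixed block 0 of the 15 were called lower and 0 higher, beside 6.43% and 5.24% of all genes. Myb, which acts early in the multiciliated programme, measured 9.47, 8.67, 9.63, 8.90 and 10.01 in WT and 8.42, 8.20, 7.86, 8.88 and 7.29 in SCC and fell by 1.20 ± 0.33 (log2, SE; limma adjusted p = 0.0138). Ccno, a cyclin of centriole amplification, measured 9.39, 9.38, 10.12, 9.76 and 8.92 in WT and 9.05, 8.63, 8.34, 9.51 and 7.94 in SCC, at -0.82 ± 0.31 (log2, SE, n = 5 and 5; limma adjusted p = 0.0522), and for this gene WT replicate 5 was the lowest WT array. Trp73, which encodes the p53 relative p73, measured 8.65, 7.42, 8.39, 7.81 and 9.24 in WT and 9.30, 8.02, 9.19, 9.38 and 8.80 in SCC, with 2 SCC arrays above all of WT and a difference of 0.64 ± 0.37 (log2, SE, n = 5 and 5; limma adjusted p = 0.18). Rfx7 and the kinase gene Ulk4 were called lower at -1.29 and -1.39, and Stil, of centriole duplication, supplied the higher call at 1.56. Stil was tested through its SCC arrays, since only 1 of 5 WT arrays was well above background, so its size is read against values near background. Without Stil, 3 of 14 (21.4%) were called lower and 0 higher. Tfdp1, a partner of the E2F factors, and Plk4, the kinase of centriole duplication, passed the adjusted p under 2-fold at 0.77 and 0.90 (limma adjusted p = 0.000177 and 0.00533), with every SCC array above every WT array. The same held for 18.9% of all genes. Mcidas and Gmnc were not analysed here.

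Markers of other cells moved as well. All 10 basal and squamous markers and all 7 goblet markers were called higher, with list means of 10.15 to 12.87 in SCC against 4.77 to 5.35 in WT and 10.59 to 12.85 against 4.60 to 5.73. Of the alveolar type 1 markers 5 of 6 were called lower, and of the endothelial markers 7 of 8. Of the alveolar type 2 markers, 5 of 8 passed the adjusted p in that direction and stayed under 2-fold, and 3 of 6 neutrophil markers were called higher. Club cell markers, from the airway that also bears the ciliated cells, averaged 15.48 to 16.15 in WT and 14.94 to 16.63 in SCC, with 5 of 10 called lower and 2, Scgb3a1 at 6.67 and Gsto1 at 3.35, called higher. The median difference of this list was -1.07, with 8 of 10 below 0, and relative to the WT mean its median was -0.95, -0.03, -2.05, -0.81 and -1.30 on SCC replicates 1 to 5. The club cell marker Scgb1a1 was at -1.33 (adjusted p = 0.00961), and its lowest SCC array was replicate 3, as for 28 of the 40 cilium genes. Germ cell and ependymal markers, whose cells also bear motile axonemes, averaged 6.62 to 6.97 in WT and 6.93 to 7.52 in SCC, with 1 of 6 tested called higher. No marker was at 0, but Krt6a, Dsg3, Sprr1b, Foxa3 and Clca1 were well above background on 0 of 5 WT arrays. SCC replicate 5 had 90.2% of probes well above background, against 71.0% to 74.4% on the others, and SCC replicate 2 had the lowest squamous list mean of the tumours. What part these markers and arrays have in the cilium gene values was not tested. With SCC replicates 2 and 5 both left out, the median difference of the 40 genes was -1.03.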

How the data were processed

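RNA from 5 WT lungs and 5 SCC tumours was labelled with Cy3 and hybridized to 1-colour Agilent whole mouse genome arrays, and the authors extracted the spots with Agilent Feature Extraction 12. The deposited scanner values are intensity values, background-subtracted and not normalized between arrays. The deposited value table holds log2 values that the authors had quantile-normalized, and its columns correlated with the values computed here at r of at least 0.9999, each with a median of 7.2, with no sign of centring by gene. Array annotation refers to build mm9, and accessions of 28223 of 41174 probes (68.5%) were matched to a gene symbol through RefSeq.

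Control spots were left out, outlier spots were set to missing, spots of a probe were averaged, and processed intensities were quantile-normalized and log2-transformed (limma 3.58.1 in R 4.3.3, Python 3.11.15, pandas 2.3.3). No spot was saturated. A probe was tested where at least 4 of the 5 arrays of a group were well above background, a call of the scanner software, which left 30374 of 41174 probes. The SCC and WT groups were compared two-sided with lmFit and eBayes, and p-values were adjusted by Benjamini-Hochberg over all tested probes. A gene was called at an adjusted p below 0.05 and at least 2-fold. On simulated data of 30267 probes, 86% of 200 probes changed by 2 on the log2 scale were recovered, with 8 false calls. Simulated probes varied independently, whereas the members varied together with a median difference of -1.07, so this share does not describe them. Values on every array are given for the transcription factors, the 5 largest and the 5 smallest falls among called members, the brightest member of each role group and the 3 smallest differences, and up to 5 called genes are named from each comparison list. Dnah2, Ccdc113, Spag6 and the other members given with values were named to account for every member. The number of arrays limits the precision. The members, the comparison lists and the sequence spellings were chosen with earlier results of these data known. The normexp alternative used median spot signals. The authors' own comparisons were not used.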

Additional observations from a re-analysis of the deposited data

Results flagged for a closer look

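Of 82 groups of 5 arrays examined (the 40 measured genes and their median in each group), 1 held an array far from the other 4, where chance alone would mark about 1 in 20 groups. Spag6, a central pair gene, read 5.79 on SCC replicate 5, while the nearest SCC array read 4.30, and this gap was 0.737 of the range of the group, above the limit of 0.71 for 5 arrays. SCC replicate 5 is also the array with 90.2% of probes well above background, and whether this bears on Spag6 was not tested. Of the 5 SCC arrays only 2 had Spag6 well above background, so the size of its difference is read against values near background.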

How the results depend on the processing

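No member changed sign under any alternative, and 0 members were called higher under each of them. The 13 members called lower became 8, all among the 13, with an ordinary test per probe, and the share of all genes called was not computed there. At an unadjusted p below 0.05 that test had 18 of 40 (45.0%) lower, beside 31.9% of all genes. With slide as a fixed block 5 (12.5%) were called, beside 6.43% of all genes, of which 2 were among the 13 and 3 were different genes. The median of -1.07 became -2.03 with that block and on slide 2 alone, which are 1 comparison with WT replicate 5, the lone WT array of slide 2. The 22 other motile cilium genes called lower became 4, of which 2 were among the 22, with slide as a fixed block and 0 on slide 2 alone. The 9 ciliary genes of most cells became 2 with normexp, 27 with no fold requirement, 4, all among the 9, with slide as a fixed block and 0 on slide 2 alone. Leaving out 1 array at a time gave 3 to 26 members (7.5% to 65.0%), at a median of -1.41 to -0.85. It gave 12 to 37 other motile cilium genes (19.7% to 60.7%) and 2 to 14 ciliary genes of most cells (4.88% to 34.1%). In the same fits 12.3% to 15.0% of all genes were called lower. Replicate numbers did not pair the samples (correlation of deviations -0.103 to 0.0087), and a replicate block gave 4 members (of 40, beside 12.5% of all genes lower), 8 other motile cilium genes and the same median. Leaving out SCC replicates 2 and 5 together, chosen after seeing the data, gave 10 members, 16 other motile cilium genes and 9 ciliary genes of most cells. The share of all genes called was not computed for that fit, so these counts cannot be set against it. Scaling to the 75th percentile, the deposited table, the filters on dim probes, array quality weights, slide as a random block and averaging probes left the counts within 1.5 times. Only SCC replicates 1 to 3 shared a slide with a WT array, so slide and group could be separated there alone, on 1 WT sample. For dim probes such as Spag6 the signal over background limits the value. The cause of these changes was not tested.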
